A study of Homo sapiens with 6 samples.

Results

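Among the genes whose mRNA fell furthest when HT-1080 cells were given PhenDC3 were 7 that encode cell surface, secreted or signalling proteins: TENM2, RGS4, PLXNA4, NTM, ARHGDIB, MPP4 and PAPPA2. They were picked by symbol out of the 22925 genes in the authors' deposited table, for the size of their fall at good expression, so the fall itself is a description here and was given no test. In the authors' deposited table they ranked 1, 2, 4, 10, 5, 7 and 8 among 9653 genes with a symbol and a mean of 100 or more, in order of falling log2 fold change. The last members inside were PAPPA2, at a deposited log2 fold change of -2.44, and NTM, at -2.36. The first genes below them were TNC, at -2.21, and H2AFX, at -2.13. CDKN2C and COL13A1 stood among the members in that order, at -2.56 and -2.43.

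HT-1080 is an established human fibrosarcoma line, and PhenDC3 is a synthetic ligand of G quadruplexes, stacked structures formed by guanine-rich DNA and RNA. The 3 PhenDC3 libraries came from cells kept for 48 h in 20 μM PhenDC3 with 1% DMSO, and the 3 DMSO libraries from cells kept for 48 h in 1% DMSO alone. Poly(A) RNA was sequenced, and nothing in the labels says whether replicates were separate cultures, so all spreads and p-values below are of libraries and may be technical. In bulk RNA of this kind, fewer cells with a transcript and less of it per cell cannot be told apart.

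The members act at different points between the outside of the cell and its interior. TENM2 (teneurin 2) is a large single-pass membrane protein that binds latrophilin receptors on a neighbouring cell. PLXNA4 (plexin A4) is a receptor for semaphorins, guidance proteins that steer axons and migrating cells, and it receives the class 3 semaphorins through neuropilin coreceptors. NTM (neurotrimin) is an IgLON, a small immunoglobulin-domain adhesion protein held to the membrane by a lipid anchor. PAPPA2 is a secreted metalloproteinase that cuts insulin-like growth factor binding proteins and is blocked by stanniocalcins. Inside the cell, RGS4 speeds the shut-off of Gi and Gq proteins, ARHGDIB holds small GTPases in an inactive complex in the cytosol, and MPP4 is a membrane-associated scaffold of the guanylate kinase family. MPP4 is best known from photoreceptors, ARHGDIB from blood cells, and TENM2, PLXNA4, NTM and RGS4 from the nervous system.

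Because PhenDC3 acts on G quadruplexes, RefSeq promoter windows (GRCh38.p14, 250 bases before to 50 after each transcript start) were searched for the usual motif, 4 runs of GGG or longer with 1 to 7 bases between runs, on both strands. All 7 genes had windows, 17 in all, and 1 window held the motif. That was 1 of the 4 windows of RGS4, and there the match was an unbroken run of C on the gene's strand, which reads as G on the other. With loops of up to 12 bases 1 of the 2 TENM2 windows matched too. Of the 10298 tested genes with a window, 41.3% had the motif in at least 1 of them, and 58.04% with the longer loops. The members' windows had a median GC content of 47.3%, against a median of 64.7% over the windows of tested genes. A match or its lack in these windows is a description of the letters only. Shown 5′ to 3′ on the gene's strand, with the matched stretch in capitals, are both windows that matched (TENM2 with the longer loops) and that of PLXNA4, which is rich in GC at 64.3% and CpG, with 30 CpG, and has no match. They lie at chr5:167754679-167754978 (plus strand), chr1:163071655-163071954 (plus strand) and chr7:132576421-132576720 (minus strand).
TENM2: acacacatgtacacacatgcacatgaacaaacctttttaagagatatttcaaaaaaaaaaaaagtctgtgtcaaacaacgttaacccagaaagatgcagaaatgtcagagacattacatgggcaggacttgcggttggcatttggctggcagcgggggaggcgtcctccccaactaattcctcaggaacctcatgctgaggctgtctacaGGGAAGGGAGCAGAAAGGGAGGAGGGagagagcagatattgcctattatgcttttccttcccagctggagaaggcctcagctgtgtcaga
RGS4: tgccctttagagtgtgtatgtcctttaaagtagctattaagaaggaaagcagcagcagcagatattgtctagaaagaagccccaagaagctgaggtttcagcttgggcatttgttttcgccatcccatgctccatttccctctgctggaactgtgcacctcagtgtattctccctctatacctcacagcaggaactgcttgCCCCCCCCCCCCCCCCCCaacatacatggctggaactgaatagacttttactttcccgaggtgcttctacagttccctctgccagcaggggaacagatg
PLXNA4: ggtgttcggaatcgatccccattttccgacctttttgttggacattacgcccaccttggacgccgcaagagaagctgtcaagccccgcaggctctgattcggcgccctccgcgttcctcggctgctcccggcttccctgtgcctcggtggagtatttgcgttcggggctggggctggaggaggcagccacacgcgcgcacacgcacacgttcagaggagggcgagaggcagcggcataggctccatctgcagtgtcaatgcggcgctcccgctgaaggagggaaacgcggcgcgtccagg

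Levels below are normalized read counts, that is, reads of a gene divided by the authors' size factor for the library. Turned back into whole reads, the libraries held 7371056 to 9386691 reads in PhenDC3 and 12574952 to 14292987 in DMSO. Mitochondrial RNA took 15.4% to 15.5% of the reads in PhenDC3 and 3.72% to 3.96% in DMSO. Of 10 mesenchymal markers, VIM, FN1 and CD44 were abundant and THY1, NT5E and COL1A2 had a mean under 5. Their summed level was 28457 to 28683 in PhenDC3 and 45218 to 48678 in DMSO, with 5 of 7 tested lower and 1 higher. The neural and glial markers SYP, SNAP25 and GFAP did not pass the test, and the summed level of that list was 104 to 118 in PhenDC3 and 90.3 to 118 in DMSO. The trophoblast and endothelial lists summed to 3.94 or less in every library. Epithelial markers summed to 74.8 to 83.4 in PhenDC3 and 59.3 to 72.4 in DMSO, and leukocyte markers to 7.87 to 24.9 in PhenDC3 and 6.19 to 8.56 in DMSO. EPCAM, CDH1 and PTPRC have no value here. The part of the mesenchymal difference in the results below was not tested.

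All 7 genes were lower in every PhenDC3 library than in any DMSO library, which the choice of members fixes. Over all 16482 genes with a mean of 5 or more, 32.6% had their 3 PhenDC3 libraries below their 3 DMSO libraries. Under limma 59.6% were called at an adjusted p under 0.05, 30.4% as lower and 29.2% as higher, 6.46% were called lower by 2-fold or more, and 0.546% by 4-fold or more. What PhenDC3 cells kept of the DMSO level lay between 11.9% for TENM2 and 19.4% for NTM. The median log2 change of the members was -2.61, against -0.02 over all tested genes. In DMSO cells these were mostly well expressed genes, PLXNA4 and TENM2 lying above 88.6% and 86.8% of tested genes and PAPPA2 above 49.9%. In PhenDC3 cells they lay above 26.7% (PAPPA2) to 50.7% (PLXNA4). Both sets of ranks follow in part from the choice of members for a large fall at good expression.

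**Figure D1:**
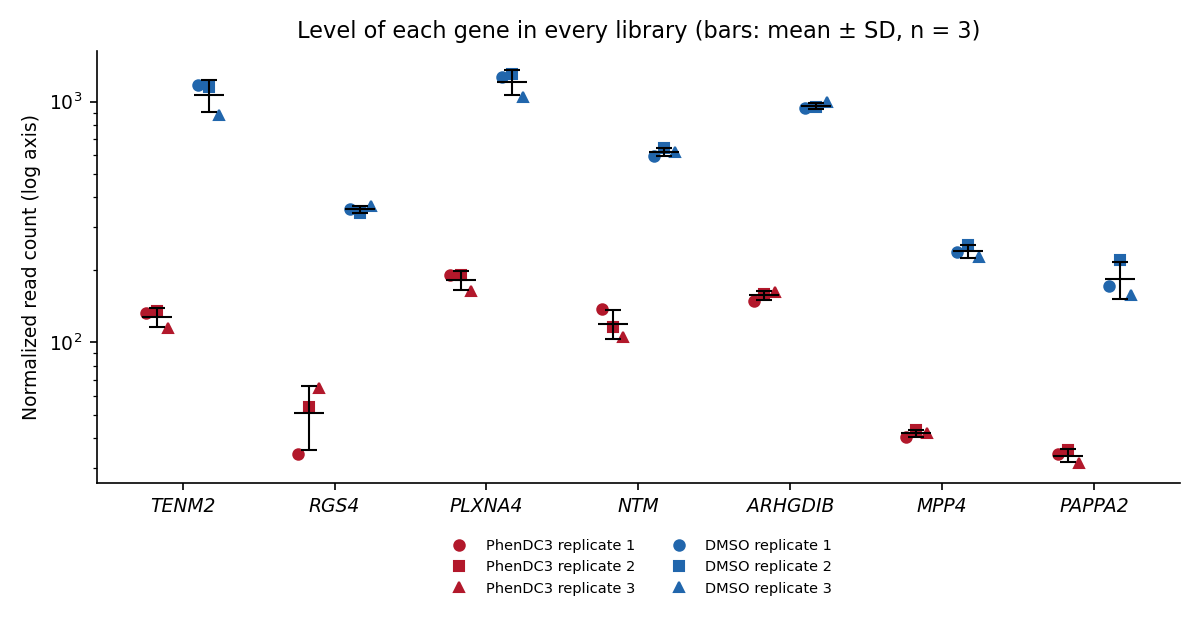
Normalized read count (log axis) of each gene in every library, the 3 PhenDC3 libraries in red to the left of the 3 DMSO libraries in blue, with horizontal bars for the mean and whiskers for the SD (n = 3). No PhenDC3 point reaches a DMSO point of the same gene, and RGS4 shows the widest spread in PhenDC3, from 34.3 to 64.3.

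TENM2 (ENSG00000145934, chromosome 5) fell furthest. It stood at 133, 135 and 114 normalized counts in the PhenDC3 libraries, against 1168, 1151 and 884 in the DMSO libraries. The third DMSO library was the lowest of its group, and it was still 6.53 times the highest PhenDC3 library. The means were 127 ± 11.6 in PhenDC3 and 1068 ± 159 in DMSO (SD, n = 3 each), a log2 change of -3.05 (SE 0.11).

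The other teneurins did not move as one. TENM4 was at 50.9, 64.0 and 59.04 normalized counts in PhenDC3, against 262, 268 and 190 in DMSO, and fell by 2.02 on the log2 scale (SE 0.14, limma adjusted p = 2.28e-10). TENM3 fell less, to a mean of 490.5 ± 7.86 in PhenDC3 against 862 ± 121 in DMSO (log2 change -0.80, SE 0.09, limma adjusted p = 1.79e-07). TENM1 was nearly silent in DMSO, at 4.67, 2.32 and 0.69, and rose to 14.2, 10.4 and 15.7 in PhenDC3 (log2 change 2.17, SE 0.47, limma adjusted p = 0.000466). TENM1 shares 241 exonic bases with STAG2 on the opposite strand, a gene at 1656 or more in every library, and its value is uncertain because the strand setting was not given in the sources used here. Per kilobase of exon, TENM2 made up 20.2% ± 1.32 of the summed teneurin level in PhenDC3 and 52.7% ± 0.355 in DMSO (SD, n = 3 each). As the members were chosen for their fall, a smaller share in PhenDC3 follows in part from that choice, here and in the other families below. TENM3 was the highest of the 4 per kilobase in PhenDC3, at 40.9 ± 0.656, while in DMSO TENM2 was, at 96.7 ± 14.4 against 71.9 ± 10.1 for TENM3.

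Of the teneurin receptors and the proteins that bind with them, the latrophilins ADGRL1 to ADGRL3 and FLRT1 to FLRT3, 1 of 6 was lower and 2 higher, against 30.4% and 29.2% of all tested genes. ADGRL2 and FLRT2 are named after their values were seen. ADGRL2 fell to 219.7 ± 8.57 in PhenDC3 against 382 ± 35.2 in DMSO (limma adjusted p = 4.29e-07). FLRT2 rose to 100.3 ± 14.5 in PhenDC3 against 51.03 ± 2.99 in DMSO (limma adjusted p = 1.85e-05). FLRT1, a low gene at 11.8, 11.9 and 14.4 in PhenDC3 and 5.45, 7.73 and 2.76 in DMSO, rose too (limma adjusted p = 0.0113), but not without DMSO replicate 3 (adjusted p = 0.0628).

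PLXNA4 (ENSG00000221866, chromosome 7) was at 191, 191 and 163 normalized counts in PhenDC3, against 1270, 1307 and 1047 in DMSO. As with TENM2, DMSO replicate 3 was the lowest of its group, and the 2 groups lay far apart. The means were 181 ± 16.1 in PhenDC3 and 1208 ± 141 in DMSO (SD, n = 3 each), a log2 change of -2.73 (SE 0.09).

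The other 8 plexins changed less than PLXNA4, which was chosen for its fall. Of them 4 (50%) were lower, 3 (37.5%) higher and PLXNC1 not called, against 30.4% and 29.2% of all tested genes. The closest relatives of PLXNA4 divided. PLXNA1 fell to 4343 ± 313 in PhenDC3 against 5776 ± 210 in DMSO (log2 change -0.41, limma adjusted p = 1.06e-05) and PLXNA2 to 570 ± 27.4 against 838 ± 60.9 (log2 change -0.55, limma adjusted p = 3.36e-06). PLXNA3 was at 912, 807 and 852 in PhenDC3 and 417, 393 and 364 in DMSO, and rose by 1.13 on the log2 scale (SE 0.08, limma adjusted p = 2.28e-10). PLXND1 fell by 0.50 (limma adjusted p = 2.45e-06) and PLXNB1 rose by 0.59 (limma adjusted p = 8.38e-06). The rise of PLXNB2, by 0.21, was lost without PhenDC3 replicate 1 (limma adjusted p = 0.0686) and at 0.04 with libraries scaled to equal read totals (limma adjusted p = 0.565). PLXNB3 was at 116, 113 and 109 in PhenDC3 and 165, 123 and 132 in DMSO. It passed with a limma adjusted p = 0.0496 and failed in 10 of 17 alternatives, among them those without PhenDC3 replicates 1, 2 or 3 (0.070, 0.0785 and 0.12) or DMSO replicate 1 (0.306). PLXNC1, which was not called, averaged 38.4 ± 3.11 in PhenDC3 and 49.1 ± 5.92 in DMSO. Per kilobase of exon, PLXNA4 was a small part of the plexin pool, 0.918% ± 0.098 in PhenDC3 and 5.53% ± 0.496 in DMSO. PLXNB2, at 551 ± 45.2 in PhenDC3 and 475 ± 11.1 in DMSO, and PLXNA1, at 397 ± 28.6 in PhenDC3 and 528 ± 19.1 in DMSO, were the most abundant.

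More semaphorin, neuropilin and related genes were called lower than higher. Of 24 tested coreceptors, semaphorins and cytoplasmic partners, 13 (54.2%) were lower and 4 (16.7%) higher, against 30.4% and 29.2% of all tested genes. By 2-fold or more 7 were lower and 1 higher, where 6.46% of all tested genes were lower by that much. The list's median log2 change was -0.43. With libraries scaled to equal read totals it had 14 lower and 3 higher, but that scaling moved the median of all genes by -0.16. Over all tested genes, too, more were then called lower and fewer higher. The coreceptor NRP2 was at 228, 198 and 160 normalized counts in PhenDC3, against 784, 785 and 654 in DMSO, and fell by 1.93 on the log2 scale (SE 0.11, limma adjusted p = 1.11e-11). NRP1, the more abundant neuropilin, named after its value was seen, fell to 3181 ± 112 in PhenDC3 against 7487 ± 360 in DMSO (limma adjusted p = 7.9e-13). For NRP1 and NRP2 the 3 PhenDC3 libraries lay below the 3 DMSO libraries, as they did for 32.6% of all tested genes.

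Among the ligands, SEMA3A, the best known repellent of axons, fell to 48.5 ± 10.8 in PhenDC3 against 146 ± 12.9 in DMSO (limma adjusted p = 3.3e-08). SEMA3B fell to 121 ± 29.2 in PhenDC3 against 373 ± 12.6 in DMSO (limma adjusted p = 1.71e-09). SEMA4B, a membrane-bound semaphorin, fell to 333 ± 35.1 in PhenDC3 against 979 ± 24.0 in DMSO (limma adjusted p = 3.09e-12). SEMA3F, a ligand for NRP2 named after its value was seen, was not called, at 692 in PhenDC3 and 632 in DMSO on average. SEMA6A went the other way, at 66.3, 71.5 and 52.5 in PhenDC3 and 18.7, 18.6 and 17.9 in DMSO (log2 change 1.72, SE 0.20, limma adjusted p = 2.71e-07). Its antisense gene SEMA6A-AS1, which shares 268 exonic bases with it, was at 22.3 to 30.8 in PhenDC3 and 2.07 to 5.41 in DMSO. DPYSL2 (CRMP2), a microtubule-binding protein that relays semaphorin signals, fell to 740 ± 13.9 in PhenDC3 against 1836 ± 182 in DMSO (limma adjusted p = 7.48e-12). SEMA7A rose to 3246 ± 78.9 in PhenDC3 against 1978 ± 48.9 in DMSO (limma adjusted p = 2.4e-09). CRMP1 and MICAL1 rose by 0.60 and 0.34 on the log2 scale. CRMP1 shares 159 exonic bases with EVC on the opposite strand, at 443 to 534 in PhenDC3 and 202 to 311 in DMSO. MICAL1 shares 305 with ZBTB24 on the same strand, at 327 to 340 in PhenDC3 and 216 to 254 in DMSO. The values of CRMP1 and MICAL1 are thus uncertain. SEMA7A, CRMP1 and MICAL1, named after their values were seen, make up with SEMA6A the 4 genes of the list called higher, against 13 called lower.

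**Figure D2:**
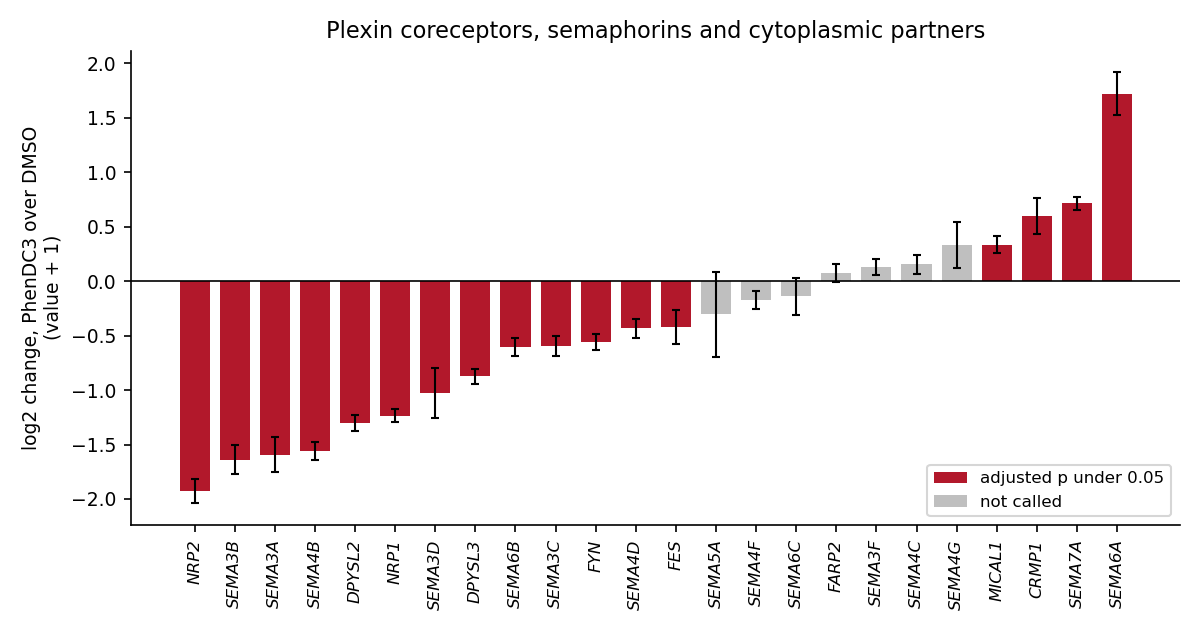
Log2 change (PhenDC3 over DMSO, of the normalized count plus 1) of the 24 tested coreceptors, semaphorins and cytoplasmic partners of plexins, with whiskers for the SE, in red where the limma adjusted p was under 0.05. NRP2 is lowest, at -1.93, and SEMA6A highest, at 1.72, with 13 red bars below 0 and 4 above.

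NTM (ENSG00000182667, chromosome 11) was at 137, 116 and 105 normalized counts in PhenDC3, against 595, 639 and 616 in DMSO. The DMSO libraries lay close together, within a coefficient of variation of 3.64%, and the lowest of them was 4.33 times the highest PhenDC3 library. The means were 119 ± 16.4 in PhenDC3 and 617 ± 22.5 in DMSO (SD, n = 3 each), a log2 change of -2.37 (SE 0.10).

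Of the other IgLONs NEGR1 alone was high enough to test, and it fell as well. It was at 86.4, 93.8 and 84.0 normalized counts in PhenDC3, against 196, 196 and 161 in DMSO (log2 change -1.05, SE 0.12, limma adjusted p = 3.1e-07). LSAMP and IGLON5 averaged 1.63 and 1.62 over the 6 libraries, under the minimum of 5, and OPCML has no value here. NTM thus made up the larger part of the measured IgLON level per kilobase in both groups, 69.5% ± 3.82 in PhenDC3 and 86.02% ± 0.946 in DMSO. Among other neural adhesion molecules of the immunoglobulin superfamily 3 of 12 could be tested, and all 3 are named after their values were seen. NCAM1 fell to 562 in PhenDC3 against 742 in DMSO on average (log2 change -0.40, SE 0.07), while NRCAM (log2 change 0.04, SE 0.12) and CNTN3 (0.05, SE 0.12) were not called.

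PAPPA2 (ENSG00000116183, chromosome 1) was the lowest of the members in DMSO. It stood at 34.3, 35.7 and 31.5 normalized counts in PhenDC3, against 172, 219.6 and 158 in DMSO. These rest on 77 reads over the 3 PhenDC3 libraries and 734 over the 3 DMSO libraries. The DMSO libraries spread by 17.6% (coefficient of variation), where counting alone would give 6.39%, yet the lowest was 4.42 times the highest PhenDC3 library. The log2 change was -2.39 (SE 0.15).

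Its paralog PAPPA, the pregnancy-associated plasma protein A that cuts IGFBP4, was at 23.7, 23.8 and 22.3 in PhenDC3 and 38.9, 39.4 and 26.9 in DMSO. It passed as lower (log2 change -0.55, limma adjusted p = 0.0356), but the call was lost in 6 of 17 alternatives, including those without PhenDC3 replicate 1 (adjusted p = 0.0583) or 3 (0.0732) and without DMSO replicate 1 (0.136) or 2 (0.144). PAPPA shares 2450 of its exonic bases with its antisense gene.

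Of 9 tested genes of the insulin-like growth factor system, 3 (33.3%) were lower and 5 (55.6%) higher, against 30.4% and 29.2% of all tested genes. With libraries scaled to equal read totals, which moved the median of all genes by -0.16, 3 were lower and 3 higher. IGF2, a ligand, was at 35.5, 46.2 and 43.3 in PhenDC3 and 15.6, 3.87 and 1.38 in DMSO (log2 change 2.88, SE 0.46, limma adjusted p = 1.9e-05). Its DMSO libraries thus lay far apart. IGF2 also shares 5144 of its 6979 exonic bases with a second gene of that symbol on the same strand, which has no value here. With INS-IGF2 it shares 1460, so its value is uncertain. IRS2, which couples the insulin and IGF1 receptors to the kinases below them, rose to 786 ± 75.1 in PhenDC3 against 257 ± 19.7 in DMSO (limma adjusted p = 5.98e-12). IGFBP2, a binding protein, fell to 15.2 ± 3.63 in PhenDC3 against 33.6 ± 9.89 in DMSO (limma adjusted p = 0.00133). STC1, a stanniocalcin, named after its value was seen, rose to 8734 ± 115 in PhenDC3 against 6122 ± 374 in DMSO (limma adjusted p = 2.96e-07). STC2, named likewise, was not called (log2 change 0.01, SE 0.07). IGFBP3 and IGFBP5, the known substrates of PAPPA2, have no value here.

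RGS4 (ENSG00000117152, chromosome 1) was at 34.3, 53.6 and 64.3 normalized counts in PhenDC3, against 358, 343 and 370 in DMSO. The DMSO libraries agreed to within a coefficient of variation of 3.69%, while the PhenDC3 libraries spread by 29.9%, where counting alone would give 16.2%. They rest on 29, 36 and 49 reads. The log2 change was -2.84 (SE 0.16), and between -3.03 and -2.58 when 1 library was left out.

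RGS5, the gene next to RGS4 on the chromosome and a member of the same subfamily, moved the opposite way. It was at 52.1, 44.7 and 47.2 in PhenDC3, against 15.6, 11.6 and 12.4 in DMSO (log2 change 1.79, SE 0.22, limma adjusted p = 7.63e-07). The table has a second row under the symbol RGS5, which GENCODE 29 lists as antisense in type and which shares 534 exonic bases with the protein-coding gene. That row was at 20.1 to 30.2 in PhenDC3 and 15.9 to 18.7 in DMSO. RGS2 (14.7 ± 3.02 in PhenDC3 and 18.9 ± 0.925 in DMSO) and RGS3 (259 ± 33.5 in PhenDC3 and 260.5 ± 11.4 in DMSO) were not called, and RGS1, RGS8, RGS13, RGS16, RGS18 and RGS21 have no value here. Per kilobase of exon RGS4 went to 23.9% ± 5.19 of the summed level of these 4 genes in PhenDC3, against 71.2% ± 0.358 in DMSO.

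Of 17 tested genes for other RGS proteins, the G proteins they act on and phospholipase C beta enzymes, 6 (35.3%) were lower and 6 (35.3%) higher, close to the 30.4% and 29.2% over all tested genes. None changed by 2-fold or more, and 6.46% of all tested genes were lower by that much. All 3 Gi genes fell, GNAI1 to 179.5 ± 18.0 in PhenDC3 against 325 ± 17.6 in DMSO (limma adjusted p = 3.36e-07), and the Gq family genes GNAQ and GNA11 rose by 0.40 and 0.53 on the log2 scale. These genes were named after their values were seen.

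ARHGDIB (ENSG00000111348, chromosome 12) was at 149, 159 and 161 normalized counts in PhenDC3, against 940.2, 946 and 994 in DMSO. Both groups were tight, with coefficients of variation of 4.19% in PhenDC3 and 3.07% in DMSO. The means were 157 ± 6.56 in PhenDC3 and 959.8 ± 29.4 in DMSO (SD, n = 3 each), a log2 change of -2.61 (SE 0.08). Per kilobase of exon it was the highest of the 7 genes in both groups, at 70.9 to 76.8 in PhenDC3 and 447 to 473 in DMSO.

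Its widely expressed paralog ARHGDIA was at 3574, 3222 and 3217 in PhenDC3 and 3450, 3671 and 3965 in DMSO, with overlapping groups. It was not called (log2 change -0.15, SE 0.07, limma adjusted p = 0.0627), though it passed as lower in 5 of 17 alternatives, among them those without PhenDC3 replicate 1 (adjusted p = 0.0284) or DMSO replicate 1 (0.0263). Another of the 5 was the fit with libraries scaled to equal read totals. ARHGDIB made up 6.11% ± 0.572 of the summed level of the pair per kilobase in PhenDC3 and 26.4% ± 0.832 in DMSO. ARHGDIG has no value here.

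MPP4 (ENSG00000082126, chromosome 2) was at 40.2, 43.2 and 42.0 normalized counts in PhenDC3, against 238, 254 and 225 in DMSO. The PhenDC3 values rest on 34, 29 and 32 reads, and their coefficient of variation of 3.53% was below the 17.8% that counting alone would give on average. The log2 change was -2.49 (SE 0.13).

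Of the 7 other scaffolds of its family 3 (42.9%) were lower and 2 (28.6%) higher, against 30.4% and 29.2% of all tested genes. MPP1 fell (log2 change -0.47, limma adjusted p = 0.000806), and MPP3 (0.46, limma adjusted p = 0.00118) and PALS2 (0.32, limma adjusted p = 0.0016) rose, the last not with libraries scaled to equal read totals (adjusted p = 0.102). PALS1 averaged 1160 ± 95.3 in PhenDC3 and 1047 ± 96.9 in DMSO and was not called, nor was MPP7, at 11.3 ± 5.65 in PhenDC3 and 10.9 ± 0.817 in DMSO. CASK fell to 314 ± 20.8 in PhenDC3 against 379 ± 23.6 in DMSO (limma adjusted p = 0.0125), and lost the call without PhenDC3 replicate 2 (0.0543), DMSO replicate 1 (0.0505) or DMSO replicate 2 (0.0645). MPP2, a low gene at 1.77 ± 0.759 in PhenDC3 and 8.30 ± 2.66 in DMSO, was the one paralog with a fall of 2-fold or more (log2 change -1.74, SE 0.49, limma adjusted p = 0.00442), and was not called by DESeq2 (adjusted p = 0.056). Per kilobase of exon MPP4 made up 2.99% ± 0.063 of the family's summed level in PhenDC3 and 15.9% ± 0.412 in DMSO, where PALS1 was the highest, at 133 ± 10.9 in PhenDC3 and 120 ± 11.1 in DMSO. Of 7 tested partners in polarity and synaptic complexes, 2 (28.6%) were lower and 3 (42.9%) higher, against 30.4% and 29.2% of all tested genes, counts too small to set the list apart. DLG1, DLG5 and LIN7B rose by 0.58, 0.63 and 0.60 on the log2 scale, while DLG3 and LIN7C fell by 0.58 and 0.91. All were named after their values were seen.

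**Figure D3:**
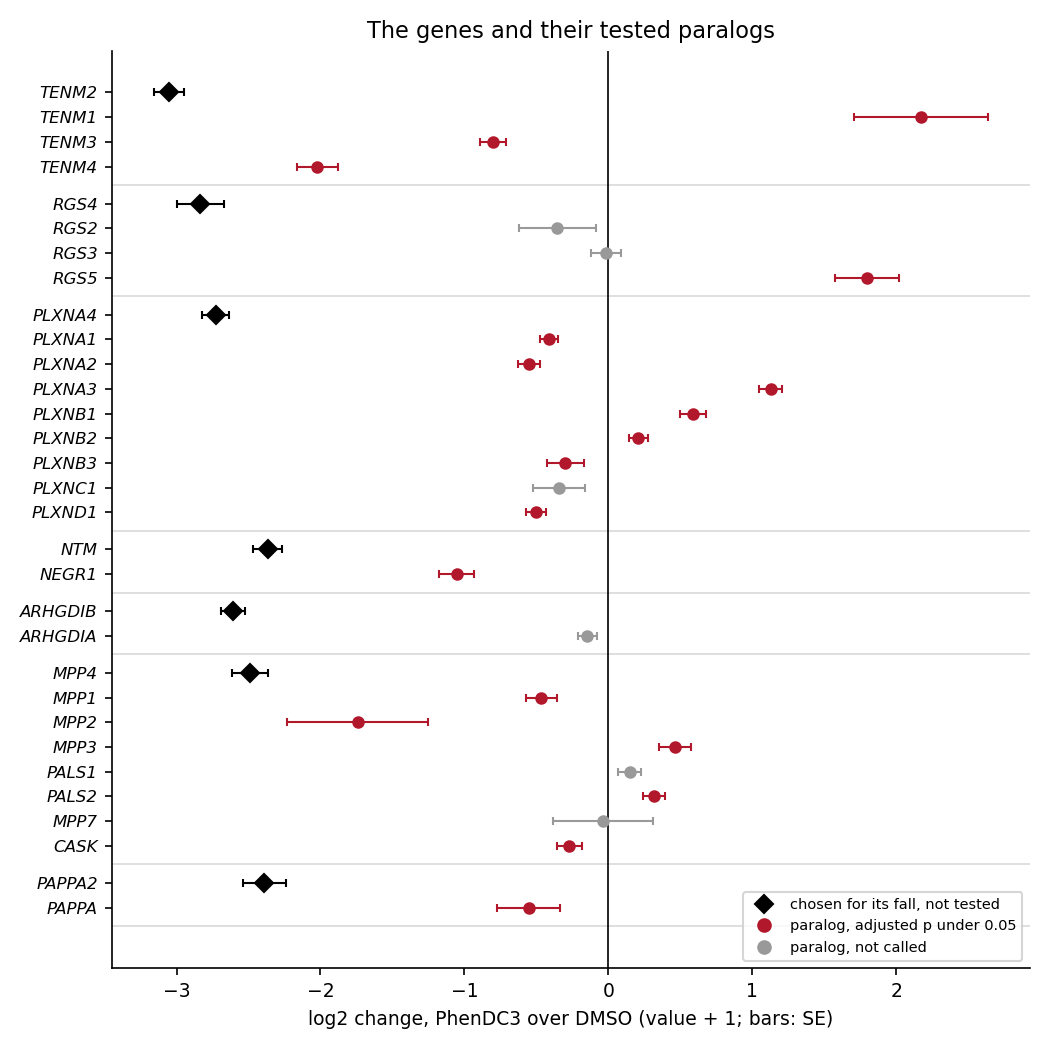
Log2 change (PhenDC3 over DMSO, of the normalized count plus 1) with whiskers for the SE, for each of the 7 genes (black diamonds, not tested) and its tested paralogs below it (red where the limma adjusted p was under 0.05, grey where not). The diamonds lie between -3.05 and -2.37, and among the paralogs TENM4 comes nearest to them, at -2.02, while TENM1, RGS5 and PLXNA3 lie above 1.

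Over all 7 families, 24 paralogs could be tested, of which 11 (45.8%) were lower and 7 (29.2%) higher, against 30.4% and 29.2% of all tested genes. Of them 3 were lower by 2-fold or more (TENM4, NEGR1 and MPP2) and 3 higher (TENM1, RGS5 and PLXNA3). Over all tested genes 6.46% were called lower by 2-fold or more. In classes of tested protein-coding genes by gene span, 6.49% to 9.23% were called higher by that much. The median that follows is of the 24 paralogs. Their median log2 change was -0.28. Of 81 tested partners 30 (37.04%) were lower and 24 (29.6%) higher, with a median of -0.03. With libraries scaled to equal read totals, which moved the median of all genes by -0.16, paralogs and partners together went to 45 lower and 24 higher, against 41 and 31 with the authors' size factors. All genes went to 6622 lower and 3573 higher, against 5012 and 4806. These read totals include mitochondrial reads, which took 15.4% to 15.5% in PhenDC3 and 3.72% to 3.96% in DMSO. The part of that difference in the shift was not tested.

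Levels per kilobase of exon in DMSO put ARHGDIB first, at 457, followed by TENM2 (96.7 ± 14.4), NTM (88.6 ± 3.23), RGS4 (73.8 ± 2.72), PLXNA4 (73.8 ± 8.60), MPP4 (48.6 ± 2.86) and PAPPA2 (16.8 ± 2.96). TENM2 and NTM did not differ beyond their spread, nor did RGS4 and PLXNA4. In PhenDC3 the order was ARHGDIB (74.5), NTM (17.2 ± 2.36), TENM2 (11.5 ± 1.05), PLXNA4 (11.1 ± 0.982), RGS4 (10.5 ± 3.14), MPP4 (8.49 ± 0.300) and PAPPA2 (3.10 ± 0.198). There TENM2, PLXNA4, RGS4 and MPP4 did not each stand clear of the next. Exonic lengths are from GENCODE 29, which may not be the annotation the authors counted on.

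The members were compared with the genes that have a symbol and a mean of 100 or more (9653, members included). The measure was the distance between log2 profiles over the 6 libraries, each centred on its own mean. MPP4 lay nearest to COL13A1, which encodes a transmembrane collagen, at 0.188 log2 units, then to ARHGDIB (0.233) and PAPPA2 (0.293). PLXNA4 lay near MPP4 (0.388) and TENM2 (0.406). NTM lay near MPP4 (0.373), PAPPA2 (0.377) and H2AFX (0.438), a histone variant gene. RGS4 was the most apart, its nearest gene being the cell cycle inhibitor CDKN2C at 0.546. With 2 groups of 3 libraries this measure is set mostly by the size of the fall, on which the members were chosen.

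Some members share a very long gene body. TENM2, NTM, PLXNA4 and PAPPA2 span 979, 966, 525 and 382 kb in GENCODE 29, while MPP4, ARHGDIB and RGS4 span 53.8, 19.7 and 8.03 kb. Over 12282 tested protein-coding genes the median span was 33.5 kb, and 484 were longer than 300 kb. Of those 484, which include these 4, 56 (11.6%) were called lower by 2-fold or more, against 5.73% to 6.88% in the 4 classes of shorter genes. Their median log2 change was -0.14, against -0.04 to -0.01 in the shorter classes. Another 8.68% of the 484 were called higher by 2-fold or more, against 6.49% to 9.23% in the shorter classes. Across all these genes the Spearman rank correlation of span with log2 change was -0.03, a description over genes that share the same libraries. With a mean of 100 or more, as all members have, 8.90% of the genes longer than 300 kb were called lower by 2-fold or more. The shorter classes there had 4.72% to 5.48%, and the correlation was 0.01.

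The members with the most exonic sequence stood lower in 1 DMSO library than in the others. DMSO replicate 3, which also differed most from the other DMSO libraries (chi-square per degree of freedom 7.12 and 7.75, against 1.77 between the other two), held 76.2%, 80.6% and 81.2% of the mean of DMSO replicates 1 and 2 for TENM2, PAPPA2 and PLXNA4. These are the 3 members with over 10 kb of exon. For MPP4 it held 91.7%, for NTM 99.8%, and for RGS4 and ARHGDIB 105%. Over protein-coding genes of a mean of 100 or more the median went down with exonic length, from 115% for genes of up to 2 kb to 84.5% for genes over 16 kb. By gene span the median went down too, from 112% for genes of up to 10 kb to 87.9% for genes over 300 kb. Without that library the log2 change was -3.18 for TENM2, -2.83 for PLXNA4 and -2.49 for PAPPA2, each a larger fall than with it.

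**Figure D4:**
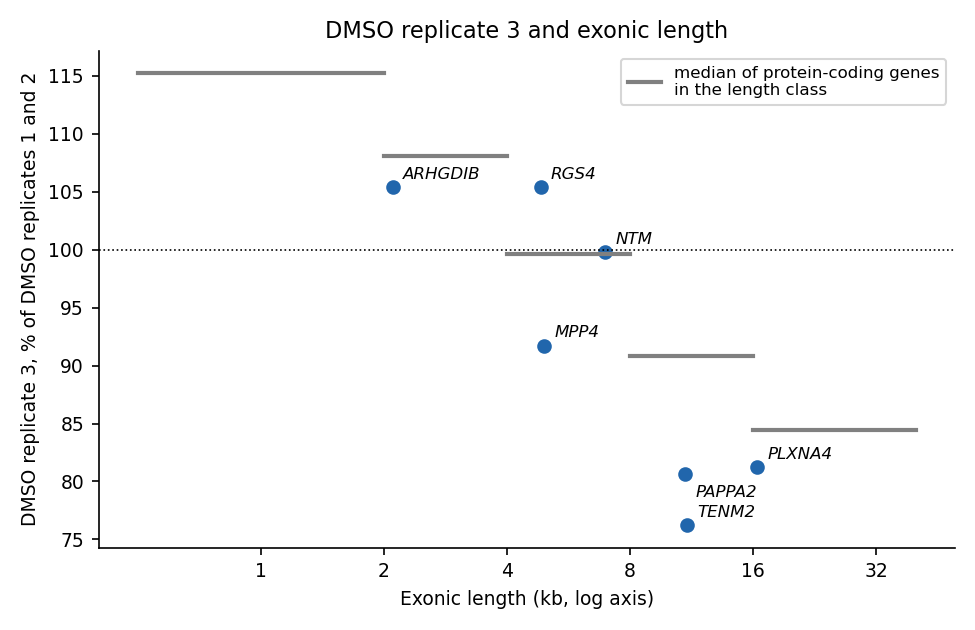
Level in DMSO replicate 3 as a percentage of the mean of DMSO replicates 1 and 2, against exonic length (kb, log axis), for the 7 genes (blue points) and as the median of protein-coding genes with a mean of 100 or more in 5 length classes (grey lines, the first and last class being open-ended). TENM2, PAPPA2 and PLXNA4 lie at 76.2% to 81.2%, and the class medians go from 115% to 84.5%.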

How the data were processed

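The authors' deposited table gives, per gene, a normalized signal for each of 6 libraries, their log2 fold change of PhenDC3 over DMSO and their adjusted p-value. Per the submitters' processing notes the tools included STAR 2.7, DESeq2 1.18.1, featureCounts, TopHat2 2.0.11, Cuffdiff, Cufflinks 2.2.1 and CASAVA, with hg19 as build and no roles or order. Annotation, filters and strand setting were not given in the sources used here. Each deposited signal is read counts divided by a size factor, as the values show: 100% were whole multiples of the value of 1 read in their library, within a relative tolerance of 1e-06.

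Main test: limma 3.58.1 (R 4.3.3) on log2(value + 1), variance trend, no block, minimum mean of 5, Benjamini-Hochberg over 16482 genes, threshold 0.05. The pseudocount shrinks changes of low genes. The fit was tested on simulated data. Alternatives included edgeR 4.0.16 and DESeq2 1.42.0 on recovered reads. Members and lists were chosen with earlier results of these data known. Named are all members, all paralogs, up to 6 partners per list past 2-fold, and nearest profiles; others are marked as named after their values were seen; 1 gene these rules take and the partners of ARHGDIB are not reported here singly. Symbols came from the table (15630) and were completed from reference names. Exons, spans and overlaps are GENCODE 29 (22123 genes matched); no member shared exonic bases with another gene. No pair of libraries agreed within sampling noise.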

Additional observations from a re-analysis of the deposited data

How the results depend on the processing

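Called genes numbered 9818, between 8418 (DESeq2) and 10582 (edgeR, no filter) in the alternatives and 8937 to 9646 in the fits that each lacked 1 library. The count among paralogs and partners (72) lay between 60 and 73, and between 64 and 69 in the fits lacking 1 library. Members with the promoter motif numbered 1, and 2 with loops of 1 to 12 bases, by the looser motif's own construction. Log2 changes of the members stayed between -3.22 (TENM2, equal read totals) and -2.25 (PAPPA2, without DMSO replicate 2). For 40 paralogs and partners, 627 of 664 values kept their call and none was called with the opposite sign. A replicate block in the fit gave 10155 called genes and 73 called relatives. Residuals of same-numbered libraries correlated at 0.01, 0.07 and 0.03, so the numbers were not taken to pair them, and PhenDC3 replicate 1 and DMSO replicates 1 and 3 did not correlate best with their own number. Depth limits RGS4, MPP4 and PAPPA2, which had 24 to 49 reads per PhenDC3 library.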

Other observations

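Other genes stood just below the members in the order of falls. TNC, which encodes the matrix protein tenascin C, was at 79.3, 52.1 and 80.04 normalized counts in PhenDC3, against 321, 362 and 303 in DMSO (limma log2 change -2.23, SE 0.14). SDK1, an immunoglobulin-superfamily adhesion protein of synapses with a span of 968 kb, was at 42.6, 44.7 and 36.7 in PhenDC3, against 189, 182 and 162 in DMSO. CORO2B, an actin-binding coronin, was at 76.9, 71.5 and 78.7 in PhenDC3, against 283, 339 and 326 in DMSO. The groups did not overlap in any of the 3, which their choice as the next largest falls fixes, and 32.6% of all tested genes had their PhenDC3 libraries below their DMSO libraries.

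The protein-coding genes next to the members were looked up after the members' values were seen. Of 14 neighbours 9 could be tested, with 2 lower, 3 higher and 4 not called, against 30.4% lower and 29.2% higher over all tested genes, so the counts do not set the neighbours apart. TMEM237, beside MPP4, fell to 153 ± 12.2 in PhenDC3 against 335 ± 13.9 in DMSO (limma adjusted p = 5.53e-09). PODXL, a sialomucin gene beside PLXNA4, rose by 0.69 on the log2 scale, and MAT2B, beside TENM2, by 0.46. CCDC190, on the other side of RGS4 from RGS5, was at 0 to 1.31 in PhenDC3 and 4.83 to 8.51 in DMSO, with a mean too low to test.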
